A study of Mus musculus with 24 samples.

Results

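The alpha-defensin gene 2010016B13Rik and 6 genes of intestinal antimicrobial and secretory defence (Reg3b, Reg3g, Reg4, Ang4, Mmp7 and Retnlb) were followed in the colon and liver of mice that differed in dietary selenium and folate. They were chosen by gene name on the array. 2010016B13Rik was chosen for its difference between diets in these colons, so its difference between diets there is given as a description with no test. The 7 genes were represented by 8 of the 41174 probes, among 27962 gene names. Ang4 had 2 probes and each of the others had 1. Reg3b carries its older symbol Pap in the files and was matched through its transcript accession, and the name alone gave 6 genes and 7 probes. All 8 probes matched a RefSeq gene by accession.

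Whole colon and liver RNA was measured on 24 two-colour arrays from 12 female C57BL/6 mice. All dams ate HF-Low, a diet rich in fat and poor in folate and selenium, from 7 days before mating until the end of lactation. From weaning at about 28 days of age the offspring either stayed on HF-Low (HF-low-low, 6 mice) or changed to HF-Suf, also rich in fat but with adequate amounts of both micronutrients (HF-low-suf, 6 mice), and tissues were taken at 12 weeks. There were 6 arrays per tissue and diet, and the replicate number of an array is also its slide, since each of the 6 slides held 1 array of every group. High fat and the maternal diet were thus common to both groups, and the selenium and folate of the post-weaning diet changed together, so their separate parts cannot be told apart.

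Each array carried the sample in Cy3 and one reference RNA, described as a pool of intestinal and liver RNA of all mice, in Cy5. The reported value is the log2 ratio of Cy3 to Cy5 after normalisation, so a higher value means more transcript in that mouse relative to the reference. A value of one probe is not compared with that of another. In RNA from whole tissue, fewer cells of a type and less RNA per cell cannot be told apart. Of the tissue markers, epithelial genes were higher in colon for 7 of 7 and hepatocyte genes were lower in colon for 5 of 5. Markers of goblet cells were higher in colon for 6 of 6, smooth muscle for 6 of 6 and adipose tissue for 6 of 6. One liver array of the HF-low-suf group (replicate 1) had a mean adipose marker ratio of 2.83, and without it 0 of the 8 probes were still called for diet in liver.

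Antimicrobial proteins are secreted by the gut epithelium into the mucus, where they keep bacteria away from the cell surface. Alpha-defensins are small cationic peptides of Paneth cells, which sit at the base of crypts in the small intestine and are normally absent from mouse colon. In mice the matrix metalloproteinase Mmp7 (matrilysin) cuts their precursors into the active peptide. Reg3b and Reg3g are C-type lectins, of which Reg3g binds peptidoglycan of Gram-positive bacteria, and both rise with microbial and interleukin-22 signals. Reg4 is a related lectin of enteroendocrine and other secretory cells, Ang4 is a ribonuclease of the angiogenin family found in Paneth and goblet cells, and Retnlb (RELMbeta) is a goblet cell protein of the resistin-like family.

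The probe sequences decide which family members a value can reflect, so those of the genes with close relatives are given here, from 5' to 3' and with positions in mouse build mm7 as the array files give them. The 2010016B13Rik probe lies on the plus strand at chr8:20088020-20088079, and the transcripts listed for it carry the RefSeq symbols Defa21 and Defa22, so the probe does not separate these copies. Capitals mark the longest run it shares with a probe of another alpha-defensin on the array, 8 bases shared with Defcr23. This run compares probes with each other and not with transcripts. It does not show which other alpha-defensins the probe can read, and that was not tested. The probes of Defcr20 (chr8:20292296-20292355) and Defcr4 (chr8:20126869-20126928) are shown because both genes were highest in the same colon as 2010016B13Rik, and their capitals mark the 18 bases that they share.
2010016B13Rik: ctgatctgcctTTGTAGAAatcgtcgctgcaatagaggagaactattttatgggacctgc
Defcr20: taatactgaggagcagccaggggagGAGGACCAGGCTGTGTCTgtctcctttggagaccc
Defcr4: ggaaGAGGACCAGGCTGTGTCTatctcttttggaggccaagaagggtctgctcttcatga

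The Ang4 probes lie at chr14:47097546-47097585 (probe 1, of which the files place only a part) and chr14:47098071-47098130 (probe 2). Capitals mark the longest run shared with the probe of the paralogue Ang3, which is 18 bases for probe 1 and 9 bases for probe 2. Signal from other angiogenins at these probes was not tested.
Ang4 probe 1: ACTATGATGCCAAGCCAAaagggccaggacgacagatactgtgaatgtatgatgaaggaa
Ang4 probe 2: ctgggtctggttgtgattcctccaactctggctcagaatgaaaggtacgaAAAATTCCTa

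The probe of Reg4, which stood far above the other colons in one of them, spans chr3:98104306-98107552 in the files, and the probe of Mmp7 lies at chr9:7695434-7695493. The probes of Reg3b (chr6:78391237-78391296), Reg3g (chr6:78484334-78484393) and Retnlb (chr16:48579484-48579543) are given by position.
Reg4: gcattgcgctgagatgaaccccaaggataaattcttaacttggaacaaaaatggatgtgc
Mmp7: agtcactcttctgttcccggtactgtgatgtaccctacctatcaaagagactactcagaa

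Both tissues and diets were first examined for detection, meaning a sample signal that the scanning software called well above background. Reg3b, Reg3g, Retnlb and both Ang4 probes were detected in 12 of 12 colons and 12 of 12 livers. Reg4 was detected in 12 of 12 colons and 10 of 12 livers, and Mmp7 in 12 of 12 colons and 5 of 12 livers, 2 of the HF-low-low and 3 of the HF-low-suf group. 2010016B13Rik was detected in only 3 of 12 colons, replicates 4 and 6 of HF-low-low and replicate 5 of HF-low-suf, and in 0 of 12 livers. The last of these colons had a Cy3 of only 247, below the 288 of HF-low-low replicate 2, which was not called detected, and its array stood apart, with 71.9% of its Cy3 and 97.3% of its Cy5 spots well above background. Its ratios in the other arrays therefore stand on sample signals near background.

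The reference was unlike the samples for several of these genes. The Cy5 intensity was 398696 to 537871 for Reg3b, 155817 to 225301 for Reg3g and 140188 to 218888 for Retnlb, whereas the highest Cy3 of any sample was 71655, 18174 and 27517. The normalised ratio of these 3 genes was below 0 on 24 of 24 arrays. The composition of the reference was not tested. In liver the Cy3 signal was 0.0951% to 0.274% of Cy5 for Reg3b, 0.206% to 0.495% for Reg3g and 0.440% to 1.18% for Retnlb. Among all spots with a Cy5 above 100000 the lowest such share was 0.0951% to 0.210% per liver array. Of those spots, 0.231% to 1.26% per liver array had a share as low as that of Reg3b, 1.62% to 3.27% one as low as that of Reg3g and 5.83% to 11.3% one as low as that of Retnlb. Detection of Reg3b in liver thus lay near the dimmest sample signals seen beside so bright a reference, and the part of Cy5 light in it was not tested.

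2010016B13Rik differed most between individual colons. In the colons of HF-low-low mice the log2 ratio was 0.09, 1.16, 0.62, 3.74, 0.10 and 2.98 in replicates 1 to 6, with a mean of 1.45 ± 1.55 (SD, n = 6). In the colons of HF-low-suf mice it was -0.07, -0.97, 0.59, 0.28, -0.01 and 0.47, with a mean of 0.05 ± 0.56 (SD, n = 6). Replicates 4 and 6 of HF-low-low stood above all other colons, and the remaining 4 values of that group overlapped those of HF-low-suf in part. The raw Cy3 intensity of the 6 HF-low-low colons was 200, 288, 220, 21045, 124 and 498, and that of the HF-low-suf colons ran from 146 to 247. The median of the other 11 colons was 200, near background, so no fold is given for replicate 4. The livers had Cy3 intensities of 128 to 231.

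HF-low-suf minus HF-low-low, the fitted colon difference of 2010016B13Rik was -1.40 (SE 0.54) on the log2 scale, that is, lower in HF-low-suf. Only 1 of the 6 HF-low-suf colons was well above background, so the size of this difference, here and under the alternatives below, is uncertain. The direction follows from the stated dyes, with the sample in Cy3 and the reference in Cy5. It is the direction of the log fold change that the study lists for this gene. The fold change listed beside it there carries the other sign. The difference was -0.94 without HF-low-low replicate 4 and -0.44 without its replicates 4 and 6. On the slides scanned on the first day (replicates 1 to 3) it was -0.77 and on those of the second day (replicates 4 to 6) -2.03. In all, 69 of the 41174 probes (0.168%) passed P below 0.01 with a fold change above 1.5 for diet in colon, 1230 (2.99%) had an unadjusted P below 0.05 and 0 an adjusted P below 0.05 in limma.

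**Figure D1:**
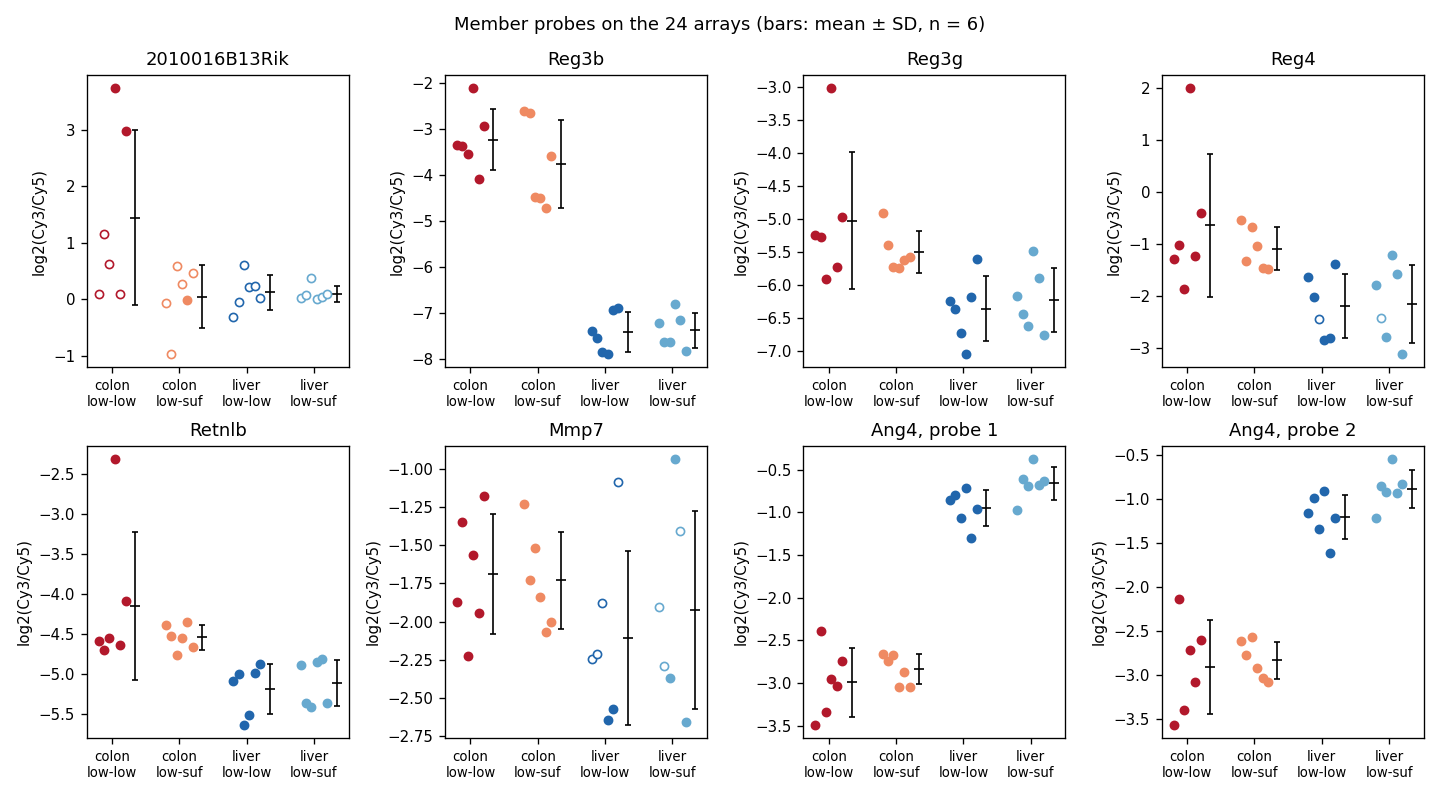
Log2 ratio of sample (Cy3) to reference (Cy5) of the 8 probes in each of the 24 arrays, by tissue and diet, 1 point per mouse (filled where the sample signal was well above background) with the group mean and SD. HF-low-low replicate 4 is the highest colon for 2010016B13Rik (3.74), Reg3b (-2.12), Reg3g (-3.02), Reg4 (2.0) and Retnlb (-2.32), and the 2 Ang4 probes lie higher in liver.

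The lectins were next considered. Reg3b had log2 ratios of -3.36, -3.39, -3.55, -2.12, -4.09 and -2.93 in the HF-low-low colons, with a mean of -3.24 ± 0.67 (SD, n = 6). In the HF-low-suf colons the ratios were -2.62, -2.67, -4.47, -4.51, -4.73 and -3.60, with a mean of -3.77 ± 0.95 (SD, n = 6). The 2 diets overlapped, and within HF-low-suf replicates 1 and 2 lay apart from replicates 3 to 5. The fitted difference was -0.53 (SE 0.39). It was -0.30 without HF-low-low replicate 4, -0.34 without HF-low-suf replicate 5, +0.18 on the first scan day and -1.23 on the second.

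For Reg3g, the HF-low-low colons gave -5.25, -5.27, -5.91, -3.02, -5.74 and -4.97, with a mean of -5.02 ± 1.04 (SD, n = 6). The HF-low-suf colons gave -4.91, -5.39, -5.73, -5.75, -5.63 and -5.58, with a mean of -5.50 ± 0.32 (SD, n = 6). Outside HF-low-low replicate 4 the groups covered the same range. The fitted difference of -0.47 (SE 0.37) became -0.07 without that array.

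Reg4 ratios in the HF-low-low colons were -1.30, -1.03, -1.86, 2.0, -1.24 and -0.40, with a mean of -0.64 ± 1.38 (SD, n = 6). Those of the HF-low-suf colons were -0.54, -1.33, -0.67, -1.04, -1.47 and -1.48, with a mean of -1.09 ± 0.41 (SD, n = 6). Again a single HF-low-low colon stood clear of the rest, and the fitted difference of -0.45 (SE 0.48) turned to +0.08 when it was left out.

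The goblet cell protein Retnlb showed the same pattern. Its ratios were -4.59, -4.70, -4.56, -2.32, -4.64 and -4.09 in the HF-low-low colons, with a mean of -4.15 ± 0.93 (SD, n = 6). They were -4.40, -4.53, -4.77, -4.55, -4.35 and -4.66 in the HF-low-suf colons, with a mean of -4.54 ± 0.16 (SD, n = 6). The difference of -0.39 (SE 0.32) shrank to -0.03 without HF-low-low replicate 4. Without replicates 4 and 6 of HF-low-low, the differences were -0.17 for Reg3b, +0.04 for Reg3g, +0.27 for Reg4 and +0.08 for Retnlb.

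Mmp7 and Ang4 did not have this pattern. Mmp7 ratios ran from -2.22 to -1.18 in the HF-low-low colons (mean -1.69 ± 0.39, SD, n = 6) and from -2.07 to -1.23 in the HF-low-suf colons (mean -1.73 ± 0.32, SD, n = 6), a fitted difference of -0.04 (SE 0.19). Ang4 probe 1 ran from -3.49 to -2.39 in the HF-low-low colons (mean -3.00 ± 0.40, SD, n = 6) and from -3.05 to -2.66 in the HF-low-suf colons (mean -2.84 ± 0.18, SD, n = 6). The fitted differences of Ang4 were +0.15 (SE 0.18) for probe 1 and +0.08 (SE 0.21) for probe 2. With each replicate left out in turn they ran from +0.05 to +0.27 and from -0.05 to +0.24, and that of Mmp7 from -0.15 to +0.06.

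Of the 8 probes, 6 were lower in the HF-low-suf colons, against 51.7% of all probes, and without 2010016B13Rik, chosen on this contrast, 5 of 7 were. By more than 1.5-fold, 1 of the 8 was lower, against 0.0826% of all probes, and this was 2010016B13Rik, so nothing is read from this count. In 0 of the 8 did the values of the 2 diets not overlap, against 0.0777% of all probes. Within the first scan day 1 of the 8 probes was lower and within the second all 8 were.

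HF-low-low replicate 4 was examined further, since 5 of the 8 probes, or 4 of the 7 without 2010016B13Rik, had their highest colon value on this array, against 7.24% of all probes and 10.2% of those detected in at least 6 colons. Its ratio lay above the median of the other 11 colons by 3.24 for Reg4, 2.56 for Reg3g, 2.24 for Retnlb and 1.43 for Reg3b on the log2 scale. In raw Cy3 signal the excess was 28.4-fold for Reg4, 12.9-fold for Reg3g, 9.97-fold for Retnlb and 6.45-fold for Reg3b. Raw Cy3 was also higher there for Mmp7 (1.62-fold) and the Ang4 probes (1.76-fold and 2.34-fold). After normalisation the Cy3 excess was 4.12 for Reg4, 2.76 for Reg3g, 2.31 for Retnlb and 1.32 for Reg3b on the log2 scale. For Mmp7 it was 0.21, and for the Ang4 probes -0.14 and 0.11. By ratio, Mmp7 ranked 5 of 12 there, and the Ang4 probes ranked 7 and 5.

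The reference signal on this array also stood apart for 2010016B13Rik and Reg4. For 2010016B13Rik the Cy5 intensity was 2698, against 77 to 560 (median 108) on the other 23 arrays, and for Reg4 it was 12884, against 5230 to 7681 (median 6828). Above those medians, the Cy5 excess came to 12.3% of the Cy3 intensity for 2010016B13Rik and 19.1% for Reg4. Retnlb, with a Cy5 of 207652, lay within the 140188 to 218888 of the other arrays. The reference is one RNA on every array, and the part of this excess in the ratios was not tested. With the Cy3 channel alone, the colon difference of 2010016B13Rik was -1.84, again of uncertain size.

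**Figure D2:**
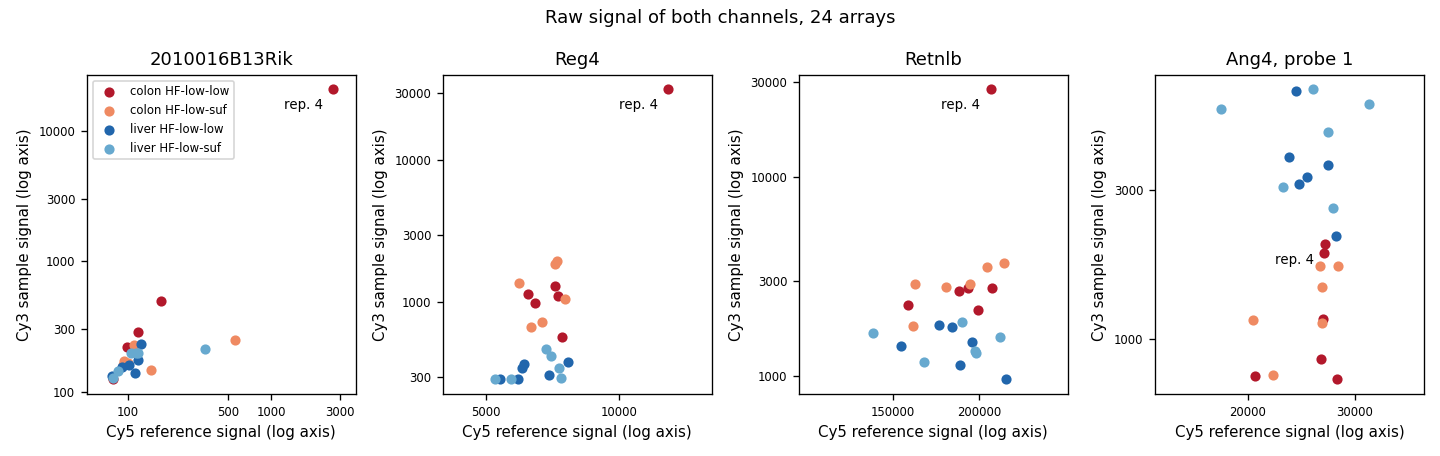
Raw Cy3 (sample) and Cy5 (reference) intensity of 2010016B13Rik, Reg4, Retnlb and Ang4 probe 1 on each array, on log axes, 1 point per array. HF-low-low colon replicate 4 has a Cy3 of 21045 for 2010016B13Rik and 31662 for Reg4, and its Cy5 for both genes (2698 and 12884) lies above that of the other 23 arrays.

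Markers of other cell types were compared on the same array. The mean ratio of small intestine enterocyte markers was -0.93, the highest of the 12 colons (others -2.20 to -1.09), with 3 of the 6 genes at their highest. That of Paneth cell markers was -3.00, the second highest (others -3.75 to -2.98), with 1 of 4 genes at its highest. Goblet cell markers had a mean of 0.41, the lowest of the colons (others 0.45 to 1.05), and smooth muscle markers ranked 11 of 12 at 0.53 (others 0.50 to 1.29). Colonocyte markers ranked 2 of 12 at 0.03 (others -0.70 to 0.14), within which the water channel Aqp8 was the highest of the colons at 0.78 (highest of the others -2.40) and the adhesion molecule Ceacam1 the lowest at -1.47. Adipose and proliferation markers also ranked 2 of 12, at 3.26 (others 1.2 to 3.39) and -0.26 (others -1.04 to 0.01), and neutrophil and macrophage markers ranked 3 of 12 at -0.53 (others -1.37 to -0.41). Markers of B and plasma cells ranked 4, epithelium 5, hepatocytes 9 and pancreas acinar cells 10 of 12. The summed Cy3 level of the small intestine enterocyte markers ran from 63998 to 193810 in the HF-low-low colons and from 71917 to 111650 in the HF-low-suf colons, and that of the Paneth cell markers from 6301 to 13981 and from 6233 to 12178. The part of these cell types in the results was not tested.

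Most probes of the other alpha-defensins were also highest in this colon. Of the 15 probes of 12 other alpha-defensin genes, 9 were highest in HF-low-low replicate 4, and in all 9 replicate 6 of the same group was second. Defcr20 had a ratio of -2.80 in replicate 4 and -5.53 in replicate 6, with the other 10 colons at -7.54 to -6.83. Defcr4 had -3.04 and -5.32, with the others at -6.80 to -6.22, and Defcr3 had -3.23 and -5.12 at one of its probes, with the others at -6.93 to -6.03. At the other Defcr3 probe and at the probes of Defcr-rs2, Defcr-rs7, Defcr-rs10 and Defcr-rs12, replicate 4 was not the highest. For Defcr-rs2 its ratios of -7.08 and -7.70 ranked 11 of 12. Several of these probes may read more than one gene copy, so that they are not independent measures.

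**Figure D3:**
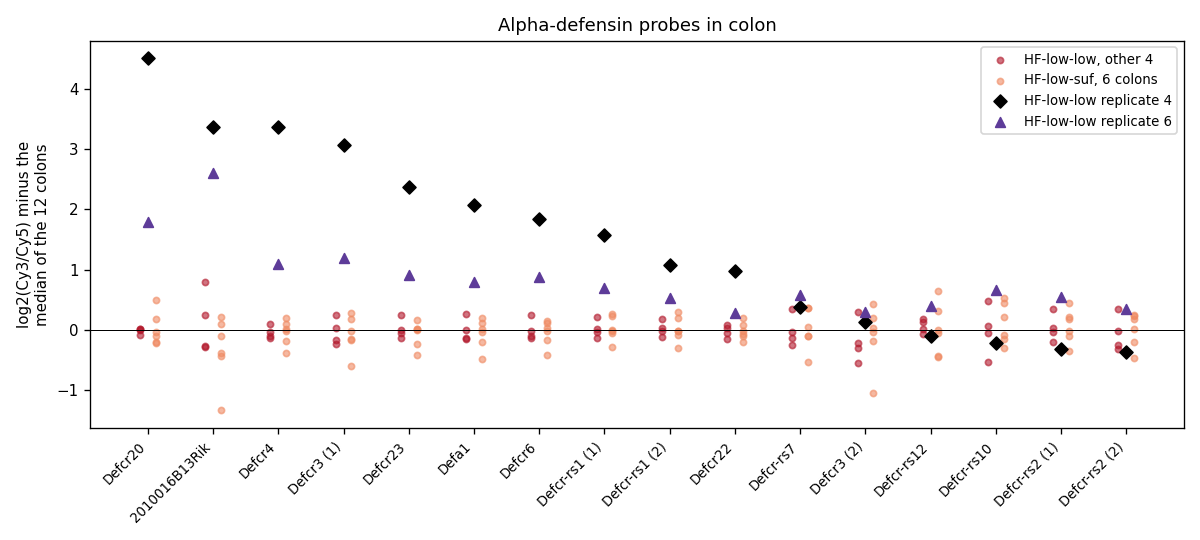
Log2 ratio of 2010016B13Rik and the 15 other alpha-defensin probes, minus each probe's median over the 12 colons, with HF-low-low replicates 4 and 6 set apart from the other 10. In 9 of the 15 replicate 4 is highest and replicate 6 second, and the probes of Defcr-rs2, Defcr-rs7, Defcr-rs10 and Defcr-rs12 do not.

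The spread between colons of one diet was then set beside that of other probes of similar detection. Among the 18078 probes detected in at least 6 colons, the median SD within diets was 0.28. Reg4 with 1.02, Reg3b with 0.82, Reg3g with 0.77 and Retnlb with 0.66 exceeded 99.3%, 98.8%, 98.5% and 97.1% of those probes. Mmp7 with 0.36 and Ang4 with 0.31 (probe 1) and 0.41 (probe 2) exceeded 72.4%, 60.7% and 81.5%. Without HF-low-low replicate 4 the SD was 0.47 for Reg4, 0.35 for Reg3g and 0.20 for Retnlb, while Reg3b kept 0.76. 2010016B13Rik had an SD of 1.17, which fell to 0.90 without that array.

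**Figure D4:**
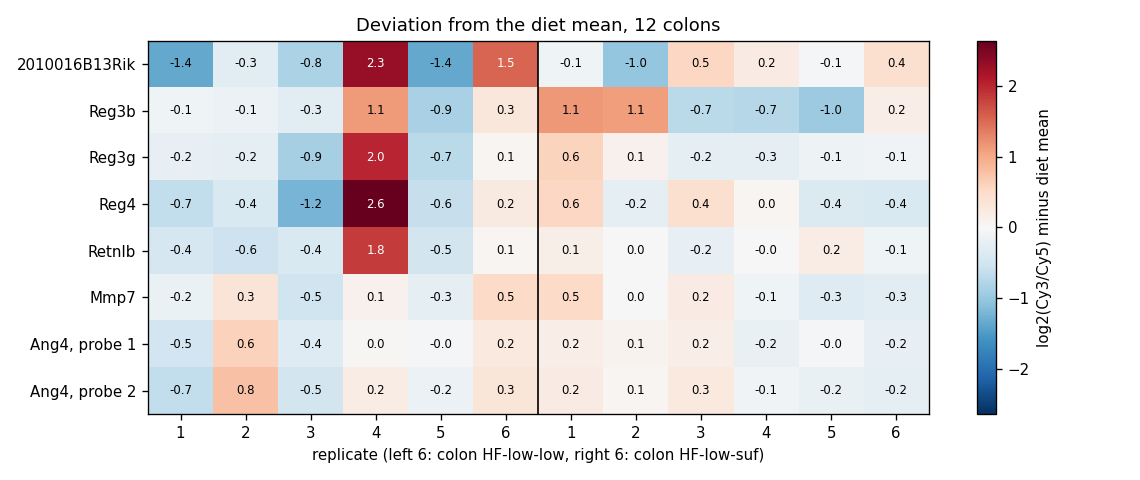
Deviation of each colon from the mean of its diet group, in log2 units, for each gene and array. HF-low-low replicate 4 stands above its group for 2010016B13Rik, Reg3b, Reg3g, Reg4 and Retnlb, while Ang4 and Mmp7 do not stand out on that array.

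Whether the genes moved on the same arrays was tested over the 12 colons after removal of each diet's mean, by permutation of mice within diets with Benjamini-Hochberg adjustment over the 21 pairs of genes. Pearson's r was above 0 in all 21 pairs, 10 had an unadjusted P below 0.05 and 5 an adjusted P below 0.05 (2 by Spearman's rho). Of the 5, 4 did not involve 2010016B13Rik, whose pairs are part of all these counts. The share among pairs of other probes was not determined, so nothing is read from the counts. The lectins Reg3b and Reg3g rose and fell together, with r = 0.71 (adjusted permutation p = 0.00483) and rho = 0.79 (adjusted permutation p = 0.0302). This held without HF-low-low replicate 4 (r = 0.74, adjusted permutation p = 0.0137), and r was 0.61 without the 2 colons farthest from the median of Reg3b. Ang4 and Mmp7 had r = 0.76 (adjusted permutation p = 0.0441) and rho = 0.84 (adjusted permutation p = 0.0328), with r = 0.87 without the 2 farthest colons. Without HF-low-low replicate 4 their r was still 0.76, with an adjusted permutation p of 0.0999.

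The other 3 pairs rested on HF-low-low replicate 4. Reg3g and Reg4 had r = 0.94 (adjusted permutation p = 0.0369) and rho = 0.67 (adjusted permutation p = 0.106), with r = 0.67 (adjusted permutation p = 0.148) without that array and 0.57 without the 2 farthest colons. Reg3g and Retnlb had r = 0.93 (adjusted permutation p = 0.0441) and rho = 0.76 (adjusted permutation p = 0.0598), with r = 0.53 (adjusted permutation p = 0.295) without it and 0.49 without the 2 farthest. The third pair, 2010016B13Rik and Reg4, is given as a description, since 2010016B13Rik was chosen on these colons and was detected in only 3 of 12. Its r was 0.80 and its rho 0.71, with r = 0.60 without that array and 0.21 without the 2 farthest colons.

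One pair passed only when that array was left out. Reg4 and Mmp7 had r = 0.51 (adjusted permutation p = 0.238) and rho = 0.71 (adjusted permutation p = 0.0598) over the 12 colons, and r = 0.92 (adjusted permutation p = 0.0042) over the remaining 11. In all, 2 pairs passed the threshold without HF-low-low replicate 4, and Reg3b with Reg3g was the 1 pair called in both. The calls also depended on the processing. With median centring 1 pair passed, Reg3g with Retnlb, and Reg3b with Reg3g had r = 0.79 (adjusted permutation p = 0.0522). With Cy3 alone 2 passed, Reg3b with Reg3g and Reg3g with Reg4, and Ang4 with Mmp7 had r = 0.55 (adjusted permutation p = 0.151). With the Feature Extraction signals 3 passed, the same 2 and Ang4 with Mmp7. Within single scan days the 6 colons were not tested.

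**Figure D5:**
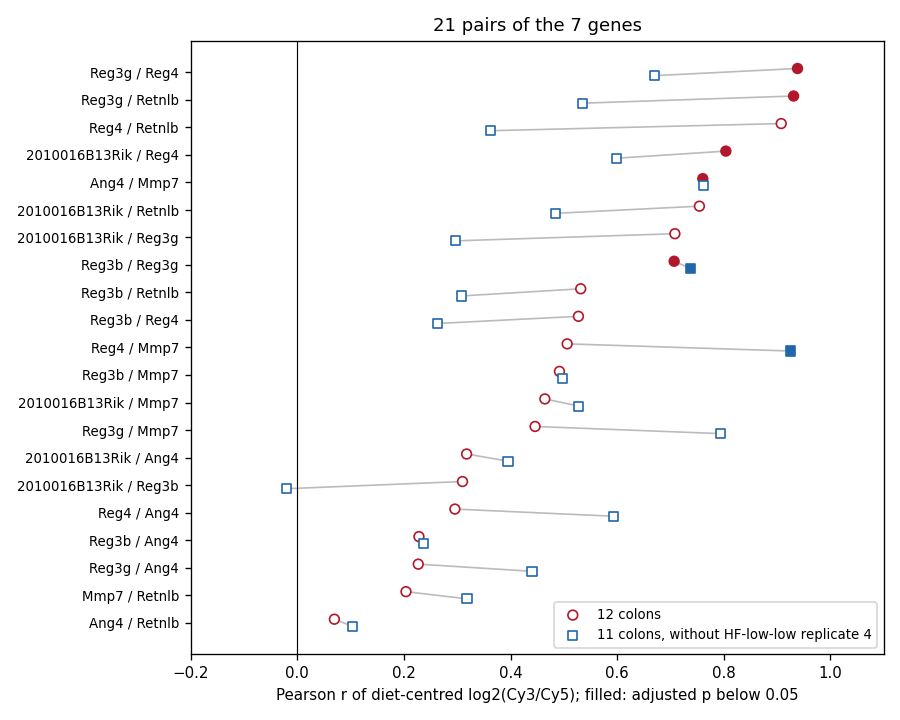
Pearson's r of the 21 pairs of genes over the 12 colons after removal of diet means, and over the 11 colons without HF-low-low replicate 4, filled where the adjusted permutation p is below 0.05. Reg3b with Reg3g (0.71 and 0.74) and Ang4 with Mmp7 (0.76 and 0.76) keep their values, while Reg3g with Retnlb falls from 0.93 to 0.53 and Reg4 with Mmp7 rises from 0.51 to 0.92.

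Reg3b and Reg3g both lie on chromosome 6, on opposite strands. Their 250 bases before the transcription start (RefSeq, build GRCm38.p6) are shown because these were the 2 genes that moved together with and without the deviating array. Capitals mark matches to TATAAA and to TTCNNNGAA (the core of STAT sites) on either strand. The Reg3b stretch (chr6:78370635-78370884, plus strand) held 1 TATAAA and 1 TTCNNNGAA. The Reg3g stretch (chr6:78468875-78469124, minus strand) held 2 TATAAA matches, 1 of them on the reverse strand, and 0 TTCNNNGAA. Of 32851 promoters of this length, 12.37% held TATAAA and 7.02% TTCNNNGAA. The longest run shared by the 2 stretches was 20 bases.
Reg3b: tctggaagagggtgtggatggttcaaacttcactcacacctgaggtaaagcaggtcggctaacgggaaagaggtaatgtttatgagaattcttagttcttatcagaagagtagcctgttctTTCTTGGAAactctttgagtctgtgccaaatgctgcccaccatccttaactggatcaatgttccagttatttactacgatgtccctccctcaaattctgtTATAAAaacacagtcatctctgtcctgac
Reg3g: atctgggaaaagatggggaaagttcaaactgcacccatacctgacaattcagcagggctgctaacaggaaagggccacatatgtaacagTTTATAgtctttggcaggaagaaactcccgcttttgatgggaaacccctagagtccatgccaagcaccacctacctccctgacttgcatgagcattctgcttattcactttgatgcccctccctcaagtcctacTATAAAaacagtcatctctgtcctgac

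For each gene, those of 11628 detected genes with the most similar pattern over the 12 colons (diet means removed) are given as a description, since all values share the same arrays. For Ang4 these were Ang3 (r = 0.97), Ang2 (r = 0.96) and Slc19a1 (r = 0.95), of which the first 2 are its paralogues. For Mmp7 they were Cd52 (r = 0.97), Osr1 (r = 0.94) and Ifitm1 (r = 0.94). For Retnlb they were Defcr4 (r = 0.98), Defcr20 (r = 0.97) and Apoa1 (r = 0.96). Reg3g was most like Pmp22 (r = 0.93), and Reg4 most like Pnp (r = 0.94). Defcr4 was among the closest to both (r = 0.90 and 0.91), and without HF-low-low replicate 4 its r was 0.36 with Reg3g and 0.48 with Reg4, while that of Pmp22 with Reg3g was 0.59 and that of Pnp with Reg4 0.87. The closest to Reg3b was Cenpi (r = 0.89) and to 2010016B13Rik Acot7 (r = 0.90).

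Colon was compared with liver over all 24 arrays in limma, with the mouse as a random block. Of the 7 genes 4 were higher in colon, and Ang4 was higher in liver at both probes. Reg3b was higher in colon by 3.90 (SE 0.23) on the log2 scale (adjusted p = 7.3e-14), in 12 of 12 mice. Its livers ran from -7.90 to -6.82, and no colon overlapped them. The liver signal lay near the dimmest beside so bright a Cy5, so the size of this difference is uncertain. Reg4 was higher by 1.31 (SE 0.30, adjusted p = 0.000736) in 12 of 12 mice, Reg3g by 1.03 (SE 0.23, adjusted p = 0.000523) in 11 of 12 and Retnlb by 0.80 (SE 0.18, adjusted p = 0.000769) in 12 of 12. The liver signals of Reg3g and Retnlb were also dim beside a bright Cy5, so the sizes of their differences are uncertain too. Ang4 was lower in colon by -2.11 (SE 0.10, adjusted p = 1.28e-15) at probe 1 and by -1.83 (SE 0.12, adjusted p = 1.11e-12) at probe 2, so that liver was higher by 4.33-fold and 3.55-fold, in 12 of 12 mice. These genes were chosen as intestinal genes, so a higher level in colon is not an independent finding.

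2010016B13Rik and Mmp7 did not pass the threshold between tissues. For 2010016B13Rik (adjusted p = 0.0879) no size is given, since no liver was well above background. Its call changed with the signals processed by Feature Extraction, the scanning software, and without the mouse of HF-low-low replicate 3 or 5, and nothing is read from this, since 3 of 12 colons and 0 of 12 livers were well above background. For Mmp7, measured well above background in 5 of 12 livers, the difference was 0.31 (SE 0.17, adjusted p = 0.195), higher in 8 of 12 mice, and it passed with no background correction (0.55), with the Feature Extraction signals (1.18) and with median centring (0.69). Of the 8 probes, 4 were called higher and 2 lower in colon, against 19.0% and 19.4% of all probes (38.4% in either direction). In 4 of the 8 the tissues did not overlap, against 12.2% of all probes.

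Between diets in liver, none of the genes passed the test. At P below 0.01 with a fold change above 1.5, 0 of the 8 probes were called in limma (45 of all probes, 0.109%), 0 had an adjusted P below 0.05 and 1 had an unadjusted P below 0.05 (2.17% of all probes). Ang4 probe 1 had ratios of -0.86, -0.80, -1.07, -0.71, -1.30 and -0.96 in the HF-low-low livers and of -0.98, -0.60, -0.69, -0.37, -0.68 and -0.63 in the HF-low-suf livers. Of the 6 HF-low-suf values 5 lay above all HF-low-low values. The difference was +0.29 (SE 0.14, two-sided exact permutation p = 0.0325, limma p = 0.0527, adjusted limma p = 0.9999). At probe 2 it was +0.32 (SE 0.15, two-sided exact permutation p = 0.0368, limma p = 0.0478, adjusted limma p = 0.9999). For the other 6 probes the differences ran from -0.03 to +0.18 with exact permutation p of 0.63 to 0.91.

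Related families were followed between tissues by counts of genes called in limma, the named genes being those with the largest differences that were well above background in the higher tissue. No gene of these families was called for diet in either tissue. Of the 12 alpha-defensin genes, 0 were higher and 5 lower in colon, with a median difference of -0.27 against -0.02 over all probes. Those named by the rule were Defcr-rs12 (-0.91), Defcr-rs2 (-0.66), Defcr-rs10 (-0.62) and Defcr-rs7 (-0.46). Their sample signals also stood beside a bright reference, with a median Cy5 over all arrays of 22262 for Defcr-rs12, 123196 for Defcr-rs7, 296690 for Defcr-rs10 and 393325 at one Defcr-rs2 probe, and the part of Cy5 light in these differences was not tested. Of 11 genes of the ribonuclease A family, to which Ang4 belongs, 0 were higher and 8 lower in colon, with a median of -0.95. Ang1 differed by -2.38, Ang2 by -2.16, Ang3 by -2.13 and Rnase4 by -1.56, which is the direction of Ang4.

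Among the 3 other resistin-like genes 2 were higher in colon, the macrophage and adipose products Retnla (1.98) and Retn (1.69), which were well above background in 1 and 2 of 12 livers. Of the 4 other Reg family genes 0 were higher and 1 was lower. Of a mixed list of 10 Paneth cell, lectin and other genes 3 were higher and 3 lower. The higher ones were the mucosal scavenger receptor Dmbt1 (6.09), 2210415F13Rik (7.09) and Nupr1 (4.40). The lectin Itlna (-0.62) and Pla2g2a (-0.61) were among the lower ones, and the lysozyme gene Lzp-s was not called. Of 21 inducible epithelial and neutrophil defence genes 8 were higher and 7 lower. The peptidoglycan recognition protein Pglyrp1 was higher (2.19), Pglyrp2, a liver-secreted amidase, lower (-6.18), and the neutrophil calcium-binding protein S100a9 lower (-2.76), while S100g, a calcium carrier, was higher (6.10). S100g was well above background in 2 of 12 livers, S100a9 in 5 of 12 colons and Pglyrp2 in 6 of 12 colons. Of 27 beta-defensin and cathelicidin genes 2 were higher, 4 lower and 21 not called.

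Of 16 regulators of the secretory and intestinal lineage, 10 were higher and 3 lower in colon. They included the intestinal homeobox factors Cdx2 (5.52) and Cdx1 (2.41), Klf4 (4.71), which acts in goblet cell maturation, and Spdef (3.15), which drives secretory cells. Cdx2 and Spdef were well above background in 2 of 12 livers and Cdx1 in 1, so the size of their differences is uncertain. Of 15 matrix metalloproteinases and inhibitors 6 were higher and 4 lower, with Timp2 (2.59), Mmp15 (1.03) and Timp3 (0.93) higher and Timp1 (-1.64) lower. Of 23 genes of microbial sensing and cytokine signalling 7 were higher and 3 lower, with the receptors Tlr2 (2.42), Il10rb (2.08) and Tlr4 (1.08) higher and Tlr9 (-2.02) lower. Tlr4 was well above background in 1 of 12 livers.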

How the data were processed

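Expression was measured in colon and liver of 12 mice on 24 two-colour arrays (Agilent 4x44K), 6 per tissue and diet as the labels give them. The authors deposited the scanner output of each array. Its mean Cy3 and Cy5 intensity and local background per spot are, as deposited, raw values quantified by Feature Extraction, and its processed intensity was background subtracted and dye normalised by that software. The deposited log10 ratio and the study's own comparisons were not used. Sample titles, not file names, gave the groups.

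Here the mean intensity was background corrected (normexp, offset 50), outlier spots (116 to 3797 per array) and 1639 control spots were left out, and arrays were normalised by loess in limma 3.58.1 (R 4.3.3), with repeated spots of a probe averaged. limma is also the tool named in the submitters' processing notes. Diets were compared within a tissue by limma, with P below 0.01 and a fold change above 1.5 as in the study's methods, and with Benjamini-Hochberg adjustment over 41174 probes. Tissues were compared with the mouse as a random block. Colon and liver were paired by mouse from the labels, and the correlation of paired deviations was -0.03 to 0.28 (consensus 0.16). The colon diet contrast of the members was described and not tested. Pairs of genes were tested by 100000 permutations within diets. Scripts were tested on simulated data. Spots well above background in Cy3 made up 38.4% to 71.9% per colon array and 26.1% to 59.6% per liver array, and the number of arrays limits the precision. P-values measure the spread between these samples.

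The members and gene lists were chosen with earlier results of these data known. The named genes of a list were up to 4 with the largest colon-liver difference, called and well above background on all arrays of the higher tissue. For each member the 3 most similar genes over the colons were found among those detected in at least 6 of 12 colons, and only some are given. Alternatives were no or other background correction, median centring, Cy3 alone, outlier spots kept, a detection filter, slide and scan day, and leaving out each replicate. Leaving out 2 arrays together was added after seeing the data.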

Additional observations from a re-analysis of the deposited data

Results flagged for a closer look

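Among 32 groups of 6 arrays (8 probes in 4 groups), 3 held an array whose gap to the nearest other array, as a share of the group's range, exceeded Dixon's 95% critical value for groups of that size, and chance alone gives about 1 in 20. Colon HF-low-low replicate 4 was far above its group for Retnlb, with a log2 ratio of -2.32 and a gap share of 0.743. The same array was far above its group for Reg3g, with -3.02 and 0.674. Liver HF-low-suf replicate 3 was above its group for 2010016B13Rik, with 0.39 and 0.771, where no array was well above background.

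The reference signal of 2010016B13Rik and Reg4 on colon HF-low-low replicate 4 stood above that of the other arrays. The Cy5 intensity there was 2698 for 2010016B13Rik, against a highest value of 560 on the other 23 arrays, and 12884 for Reg4, against 7681. That of Reg3g was also the highest there, at 225301 against 225120. The cause was not tested.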

How the results depend on the processing

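The tissue comparison called 6 to 8 of 8 probes under the alternatives run (6 to 7 when each mouse was left out), with 2010016B13Rik and Mmp7 called under some of them, and the liver diet comparison called 0, also when each replicate was left out (0 to 0). The count of probes lower in the HF-low-suf colons, 6 of 8, was 1 within scan day 1, and 2 with HF-low-low replicates 4 and 6 left out together, an alternative chosen after seeing the data. It was 5 to 7 when each replicate was left out. The number of pairs of genes called, 5, was 3 with the Feature Extraction signals, 1 with median centring, 2 with Cy3 alone and 9 with diet means not removed. It was 1 to 6 when each replicate was left out, and of the alternatives added later, 1 without HF-low-low replicates 4 and 6 and 2 without HF-low-low replicate 4 and HF-low-suf replicate 5. The cause was not tested. The filter on detection leaves out 2010016B13Rik.

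Replicate numbers marked a shared slide. Deviations of arrays of one slide correlated by -0.09 to 0.24 in colon and -0.50 to 0.53 in liver, and the main comparisons did not use the slide. The permutations for pairs of genes ignored slide and scan day. With the replicate block the colon difference of 2010016B13Rik was -1.40 (SE 0.43), and the counts stayed at 6 lower in colon and 0 called in liver. Weak signal limits 2010016B13Rik, which was near background on 9 of 12 colon arrays.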
